A study of Mus musculus with 12 samples.

Results

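The genes described here are 7 members of the bone morphogenetic protein (BMP) pathway and its Id targets: the ligand Bmp4, the receptor Bmpr1a, the feedback inhibitor Smad6, and Id1, Id2, Id3 and Id4. They were chosen by name, with earlier results of these data known. All 12 probes annotated to them were taken from the 46133 probes of the array. An intensity of 32 served as the floor for dim probes, and a probe was tested where it lay above the floor on at least 3 of the 12 arrays. Of the member probes 9, from 6 genes, passed that filter, as did 15853 probes of the whole array. Both Id4 probes and 1 of the Bmp4 probes lay below the floor on every array and were not tested.

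The study measured mRNA in E14 mouse embryonic stem (ES) cells kept without feeder cells on gelatin, in medium with LIF and serum. Every culture was transfected with a pSUPER puro plasmid carrying a short hairpin RNA: against firefly luciferase (Luc) in 6 control cultures, against Jmjd1a (now Kdm3a) in 3, and against Jmjd2c (now Kdm4c) in 3. Both targets encode demethylases of histone H3 lysine 9, and a single hairpin label is given for each. Puromycin selection is described in full for the Luc cultures only, since the texts of the knockdown cultures break off after naming puromycin. The series text calls the cultures biological replicates without saying how they were separated, so p-values measure the spread between these samples. Jmjd1a was compared with Luc replicates 1 to 3 and Jmjd2c with Luc replicates 4 to 6, because the arrays fall into 2 sets along that line. The labels name no sets, and this division was read from the data.

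BMP ligands bind pairs of type I and type II receptors, which phosphorylate Smad1, Smad5 and Smad9. These Smads join Smad4, enter the nucleus and switch on target genes, among which the Id genes and Smad6 are the best known. Id proteins have a helix-loop-helix domain but no DNA-binding region, and they hold E proteins and tissue-specific partners in inactive pairs. In mouse ES cells, BMP4 acting through Id genes, together with LIF, is known to sustain self-renewal.

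Id1, Id2 and Id3 were higher in both knockdowns than in the Luc arrays of the same set, by 1.48 to 1.54-fold with the Jmjd1a hairpin and by 2.38 to 2.60-fold with the Jmjd2c hairpin. Bmp4 was 2.02-fold lower with the Jmjd1a hairpin and 1.16-fold higher with the Jmjd2c hairpin, the latter close to the threshold. The same 3 Id genes also differed between the Luc sets, by 2.72 to 3.62-fold. Bmpr1a was called only with the Jmjd2c hairpin and near the threshold, Smad6 passed in neither knockdown, and Id4 lay under the floor.

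The 250 bases upstream of the start sites of Id2 and Id3 are shown because these genes moved together in every comparison, and because Smad proteins are known to bind such regions. They come from RefSeq on build GRCm38.p6, where the Id2 window is chr12:25096093-25096342 on the minus strand and the Id3 window is chr4:136143572-136143821 on the plus strand. Of the 7 members 6 matched the promoter table, and Id1, which also rose in both knockdowns, had no entry in it. Capitals mark GGCGCC, a GC-rich motif bound by BMP Smads that reads the same on both strands, and CAGAC or its complement GTCTG, the core of the Smad-binding element. No match overlaps another.
Id2: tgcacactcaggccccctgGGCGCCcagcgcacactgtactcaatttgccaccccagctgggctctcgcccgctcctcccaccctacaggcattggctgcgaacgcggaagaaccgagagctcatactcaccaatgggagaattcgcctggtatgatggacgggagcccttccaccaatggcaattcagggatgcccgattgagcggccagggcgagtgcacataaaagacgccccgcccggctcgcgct
Id3: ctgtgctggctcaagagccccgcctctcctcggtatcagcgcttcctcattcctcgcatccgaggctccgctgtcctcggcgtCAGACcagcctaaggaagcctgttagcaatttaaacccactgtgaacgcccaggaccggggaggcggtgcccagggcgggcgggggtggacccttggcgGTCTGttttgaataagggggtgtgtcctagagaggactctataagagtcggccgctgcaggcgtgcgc
The Id2 window held GGCGCC at position -231, counted from the start site, and no CAGAC on either strand. The Id3 window held CAGAC at -167 and GTCTG at -68 and no GGCGCC. Of the other members in the table, Id4 (at -148) and Bmpr1a (at -198) held GGCGCC, and Bmp4 and Smad6 held neither motif. GGCGCC was thus not particular to the members that changed: Id4, under the floor on every array, held it, and Bmp4, which fell in Jmjd1a, did not. CAGAC or GTCTG was found in Id3 alone of the 6 members in the table, and not in Id2, which rose too. Both windows had a GC content of 62.8%. Among 32851 promoters of the same length GGCGCC was found in 3149 (9.59%) and CAGAC on either strand in 13861 (42.2%), so the second motif is common. These matches describe the letters only, and no binding was measured.

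Mean intensity per array was 236 to 245, between 13591 and 14996 probes per array lay above the floor, and the number of arrays limits the precision. Arrays of the same group and set correlated at r = 0.995 to 0.997 over the tested probes, against 0.962 to 0.964 between Luc replicates 1 to 3 and Luc replicates 4 to 6. The targeted genes were reduced in the cultures labelled as their knockdown: the Kdm3a probes were left at 31.9% and 37.8% of the Luc level in the Jmjd1a arrays, and the Kdm4c probe at 38.3% in the Jmjd2c arrays. In these bulk samples fewer cells of a type and less RNA per cell cannot be told apart.

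**Figure D1:**
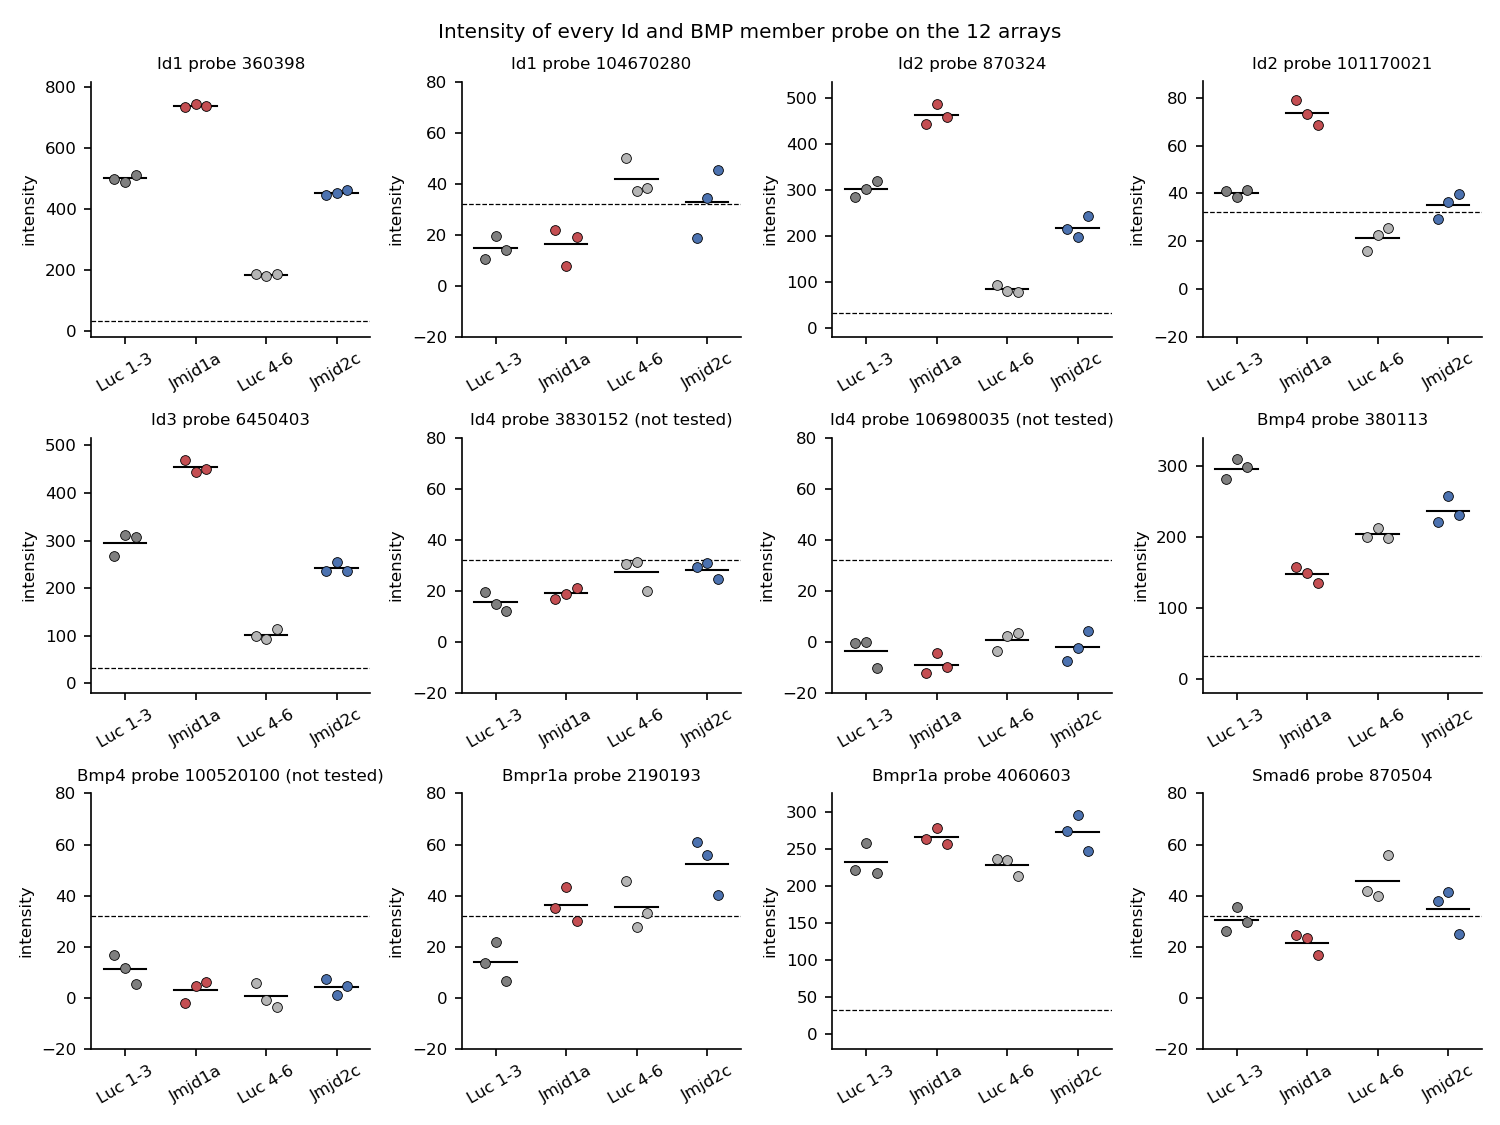
Deposited intensity (linear scale, arbitrary units) of each of the 12 member probes on every array. Points are arrays, bars are group means, and the dashed line is the floor of 32. The tested probes of Id1 (360398), Id2 (870324) and Id3 have the order Jmjd1a, Luc 1-3, Jmjd2c, Luc 4-6 from high to low with no overlap, and Bmp4 probe 380113 is lowest in Jmjd1a.

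Bmp4 encodes the ligand. Its probe 380113 read 282.5, 309.9 and 298.6 in Luc replicates 1 to 3 and 157.8, 148.8 and 135.4 in the Jmjd1a arrays. It read 200.4, 213.3 and 198.4 in Luc replicates 4 to 6 and 220.9, 257.6 and 231.1 in the Jmjd2c arrays. All Jmjd1a arrays lay below every other array, and all Jmjd2c arrays lay above their own Luc arrays by a small margin. Of all tested probes 19.3% had the 3 Jmjd1a arrays below Luc 1-3, and 26.7% had the 3 Jmjd2c arrays above Luc 4-6. The group means were 297 ± 13.8 (SD, n = 3) in Luc 1-3, 147 ± 11.3 in Jmjd1a, 204 ± 8.09 in Luc 4-6 and 237 ± 18.9 in Jmjd2c.

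With the Jmjd1a hairpin Bmp4 fell by 1.01 ± 0.08 (SE) on the log2 scale, at an adjusted p of 2.69e-06 in limma's test, and by size it ranked 120 from the bottom of the tested probes. With the Jmjd2c hairpin it rose by 0.21 ± 0.08 at an adjusted p of 0.0461. That call was lost in 14 of the alternative settings. Among them was leaving out Jmjd2c replicate 2 (0.15) or 3 (0.23), Luc replicate 4 (0.20), 5 (0.24) or 6 (0.19), or, at an unchanged 0.21, Jmjd1a replicate 2 or Luc replicate 1, 2 or 3. It was also lost with a common median and with floors of 16 and 64, and against all 6 Luc arrays the change was -0.060. The changes in the Jmjd1a and Jmjd2c cultures differed from each other by -1.22 ± 0.11 (adjusted p = 1.69e-05). Between the Luc sets Bmp4 was lower in replicates 4 to 6 by 1.46-fold, a log2 difference of -0.54 ± 0.08 (adjusted p = 7.40e-05). The other Bmp4 probe, 100520100, ran from -3.5 to 16.9 on the 12 arrays, all under the floor.

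Bmpr1a encodes a type I receptor for BMP2 and BMP4. Probe 4060603 read 221.3, 257.7 and 216.8 in Luc replicates 1 to 3 and 262.8, 278 and 256.8 in the Jmjd1a arrays. It read 236.6, 234.2 and 212.6 in Luc replicates 4 to 6 and 273.5, 295.1 and 247.3 in the Jmjd2c arrays. The Jmjd1a arrays overlapped Luc replicates 1 to 3 through 1 Luc array, and the Jmjd2c arrays stood just above Luc replicates 4 to 6. The change was 0.20 ± 0.09 on the log2 scale in Jmjd1a, with a 95% interval of 0.01 to 0.39 before adjustment and an adjusted p of 0.113. Without Luc replicate 2 it was 0.28 and passed (adjusted p = 0.0371). In Jmjd2c the change was 0.25 ± 0.09 (adjusted p = 0.0340), and this call was lost in 7 alternatives. They include leaving out Jmjd2c replicate 1 (0.25) or 2 (0.19) or Luc replicate 5 (0.27) or 6 (0.20), and the comparison with all 6 Luc arrays (0.24). The Luc sets differed at this probe by -0.02 (adjusted p = 0.843), with an interval of -0.21 to 0.16.

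Probe 2190193 of the same gene lay near the floor: group means were 14.0 ± 7.56 in Luc 1-3, 36.3 ± 6.73 in Jmjd1a, 35.5 ± 9.17 in Luc 4-6 and 52.4 ± 10.7 in Jmjd2c. It passed the test with the Jmjd2c hairpin, at a log2 change of 0.50 ± 0.17 (adjusted p = 0.0346), although 1 Jmjd2c array lay within the range of its Luc arrays. This call was lost in 9 alternatives, among them leaving out Jmjd2c replicate 1 (0.38) or 2 (0.45) or Luc replicate 5 (0.41) or 6 (0.43). With the Jmjd1a hairpin the Luc arrays were all under the floor, the rise was at least 1.14-fold, and the adjusted p was 0.473. A floor of 16 instead gave a log2 change of 1.02 (adjusted p = 0.00736) in Jmjd1a, so this probe's call depends on the floor.

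Smad6 encodes an inhibitory Smad that BMP signalling induces and that dampens the receptors. Its probe read 26.1, 35.7 and 29.7 in Luc replicates 1 to 3, and 24.7, 23.3 and 16.6 in the Jmjd1a arrays. It read 41.7, 40 and 56 in Luc replicates 4 to 6, and 37.9, 41.4 and 24.9 in the Jmjd2c arrays. All these values were near the floor, and the Jmjd1a arrays were all under it. Smad6 did not pass the test in either knockdown: the log2 change was -0.05 ± 0.12 (adjusted p = 0.832) in Jmjd1a and -0.30 ± 0.12 (adjusted p = 0.0773; 95% interval before adjustment -0.57 to -0.03) in Jmjd2c. Without Jmjd2c replicate 2 the Jmjd2c change was -0.38 and without Luc replicate 5 it was -0.39, and both then passed at adjusted p of 0.0479 and 0.0416. Smad6 was higher in Luc replicates 4 to 6 than in 1 to 3, by 0.45 ± 0.12 (adjusted p = 0.00784), with every array of the former above every array of the latter. With arrays set to a common median that difference was 0.29 and did not pass (adjusted p = 0.0622).

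Id1 is the Id gene best known as a BMP target. Probe 360398 read 498.9, 489.1 and 510.2 in Luc replicates 1 to 3 and 734.8, 743.2 and 738.3 in the Jmjd1a arrays. It read 184.9, 180 and 186.4 in Luc replicates 4 to 6 and 443.8, 453.3 and 462.9 in the Jmjd2c arrays. The 4 groups did not overlap: each knockdown lay above its own Luc arrays, and the Jmjd2c arrays still lay below Luc replicates 1 to 3. Id1 rose 1.48-fold with the Jmjd1a hairpin, a log2 change of 0.57 ± 0.05 (adjusted p = 5.90e-06). It rose 2.47-fold with the Jmjd2c hairpin, a log2 change of 1.30 ± 0.05 (adjusted p = 7.79e-09).

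The other Id1 probe, 104670280, read 10.6, 19.6 and 13.9 in Luc replicates 1 to 3 and 21.8, 7.9 and 19 in the Jmjd1a arrays, all under the floor. It read 49.9, 37.1 and 38.2 in Luc replicates 4 to 6 and 18.8, 34.4 and 45.4 in the Jmjd2c arrays. The knockdowns overlapped their Luc arrays at this probe, and it passed in neither (adjusted p = 1 and 0.342), except that without Jmjd2c replicate 3 it fell by 0.32 in Jmjd2c (adjusted p = 0.0438). Between the Luc sets it was at least 1.29-fold higher in replicates 4 to 6 (adjusted p = 0.0278), which is opposite to probe 360398. That call was lost in 8 alternatives, among them leaving out Luc replicate 1, 2 or 3 (0.37) or 4 (0.23). Probe 360398 was above the floor on every array, whereas probe 104670280 straddled it.

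Id2 is, like Id1, a dominant-negative partner of E proteins. Probe 870324 read 284.7, 302.6 and 320 in Luc replicates 1 to 3 and 443.1, 487.8 and 459.8 in the Jmjd1a arrays. It read 93.3, 79.8 and 78 in Luc replicates 4 to 6 and 213.9, 197.8 and 242.4 in the Jmjd2c arrays. As for Id1, no group overlapped another and Luc replicates 4 to 6 were lowest. Id2 rose 1.53-fold in Jmjd1a (log2 change 0.62 ± 0.09, adjusted p = 0.000412) and 2.60-fold in Jmjd2c (1.38 ± 0.09, adjusted p = 7.05e-07).

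Id2 probe 101170021 read 41, 38.6 and 41.4 in Luc replicates 1 to 3 and 78.9, 73.1 and 68.8 in the Jmjd1a arrays. It read 15.7, 22.4 and 25.5 in Luc replicates 4 to 6 and 29.4, 36.4 and 39.8 in the Jmjd2c arrays. The order of the groups was that of probe 870324, but Luc replicates 4 to 6 lay wholly under the floor. The rise in Jmjd1a was 1.82-fold (log2 change 0.87 ± 0.08, adjusted p = 1.25e-05). In Jmjd2c it was at least 1.12-fold and did not pass (adjusted p = 0.122), although all 3 arrays lay above their Luc arrays. With a floor of 16 the log2 change in Jmjd2c was 0.74 (adjusted p = 0.00464), and without Jmjd2c replicate 1 it was 0.25 (adjusted p = 0.0228).

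Id3 is the remaining Id gene well above the floor. Its probe read 267.7, 312.1 and 307.9 in Luc replicates 1 to 3 and 469.7, 444.4 and 449.8 in the Jmjd1a arrays. It read 99.8, 92.3 and 114.3 in Luc replicates 4 to 6 and 236.8, 255.4 and 236.1 in the Jmjd2c arrays. The groups again did not overlap and kept the order seen for Id1 and Id2. Id3 rose 1.54-fold in Jmjd1a (log2 change 0.62 ± 0.08, adjusted p = 0.000243) and 2.38-fold in Jmjd2c (1.25 ± 0.08, adjusted p = 8.68e-07). The Id4 probes ran from 12.2 to 31.3 and from -12.4 to 4.3 over the 12 arrays, so Id4 lay under the floor in every group.

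Counted by probe, 4 of the 9 tested member probes rose with the Jmjd1a hairpin and 1 fell, where 25.5% of all tested probes were called, 13.4% as rises and 12.1% as falls. With the Jmjd2c hairpin 6 member probes rose and none fell, where 39.0% of all tested probes were called, 20.7% as rises and 18.2% as falls. All 3 Jmjd1a arrays lay above Luc 1-3 at 5 of the 9 member probes and below at 2, against 21.5% and 19.3% of all tested probes. All 3 Jmjd2c arrays lay above Luc 4-6 at 6 member probes and below at none, against 26.7% and 23.2%. Without Jmjd2c replicate 2, Luc replicate 5 or Luc replicate 6 the count of rises was 3, since the calls of Bmp4 and of both Bmpr1a probes were lost. The calls of Id1, Id2 and Id3 in both knockdowns held with each array left out in turn, at adjusted p of at most 0.00271 in Jmjd1a and 1.22e-05 in Jmjd2c. By size of the log2 rise over all 15853 tested probes, Id1, Id2 and Id3 ranked 515, 423 and 414 from the top in Jmjd1a and 52, 41 and 57 in Jmjd2c. In each knockdown against its own Luc arrays, 910 probes (5.74% of those tested) rose in both, so a rise in both was not rare. The members were chosen with earlier results of these data known, so these counts and ranks are descriptions.

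**Figure D2:**
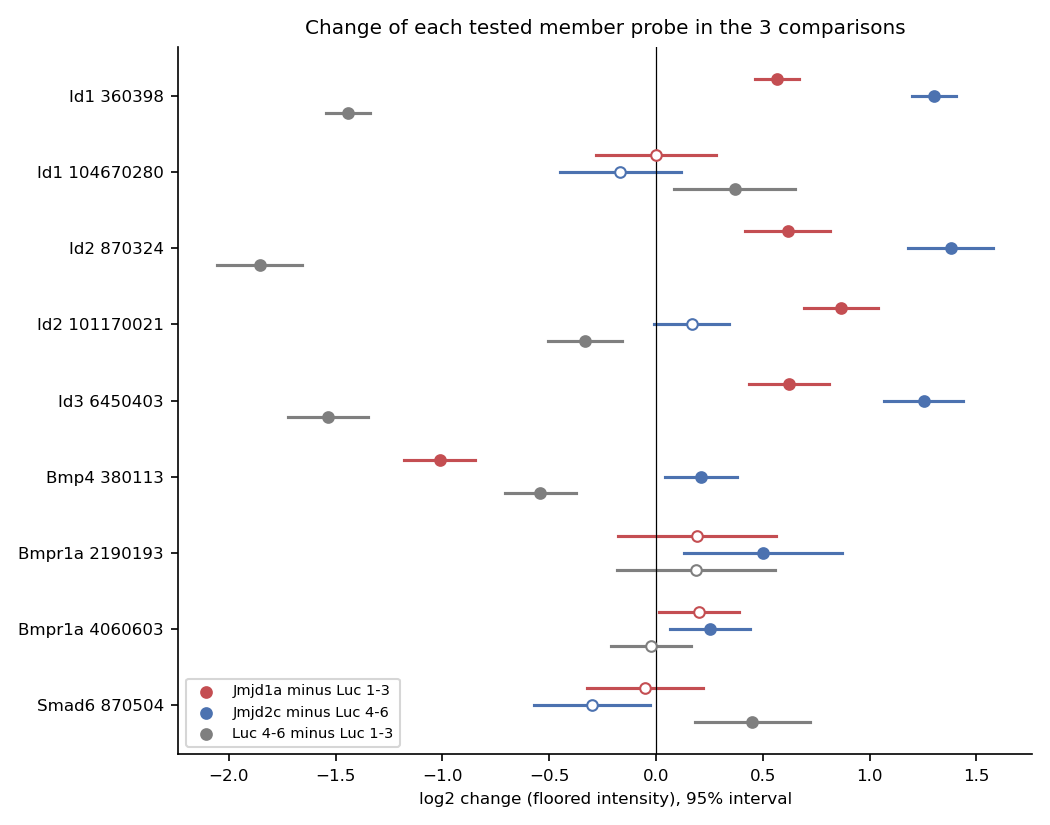
Log2 change of the 9 tested member probes (x axis, with the 95% interval before adjustment) in Jmjd1a against Luc 1-3, Jmjd2c against Luc 4-6, and Luc 4-6 against Luc 1-3. Filled points passed at an adjusted p under 0.05 and open points did not. Id1 360398, Id2 870324 and Id3 lie right of 0 in both knockdowns and between -1.86 and -1.44 in the comparison of the Luc sets.

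**Figure D3:**
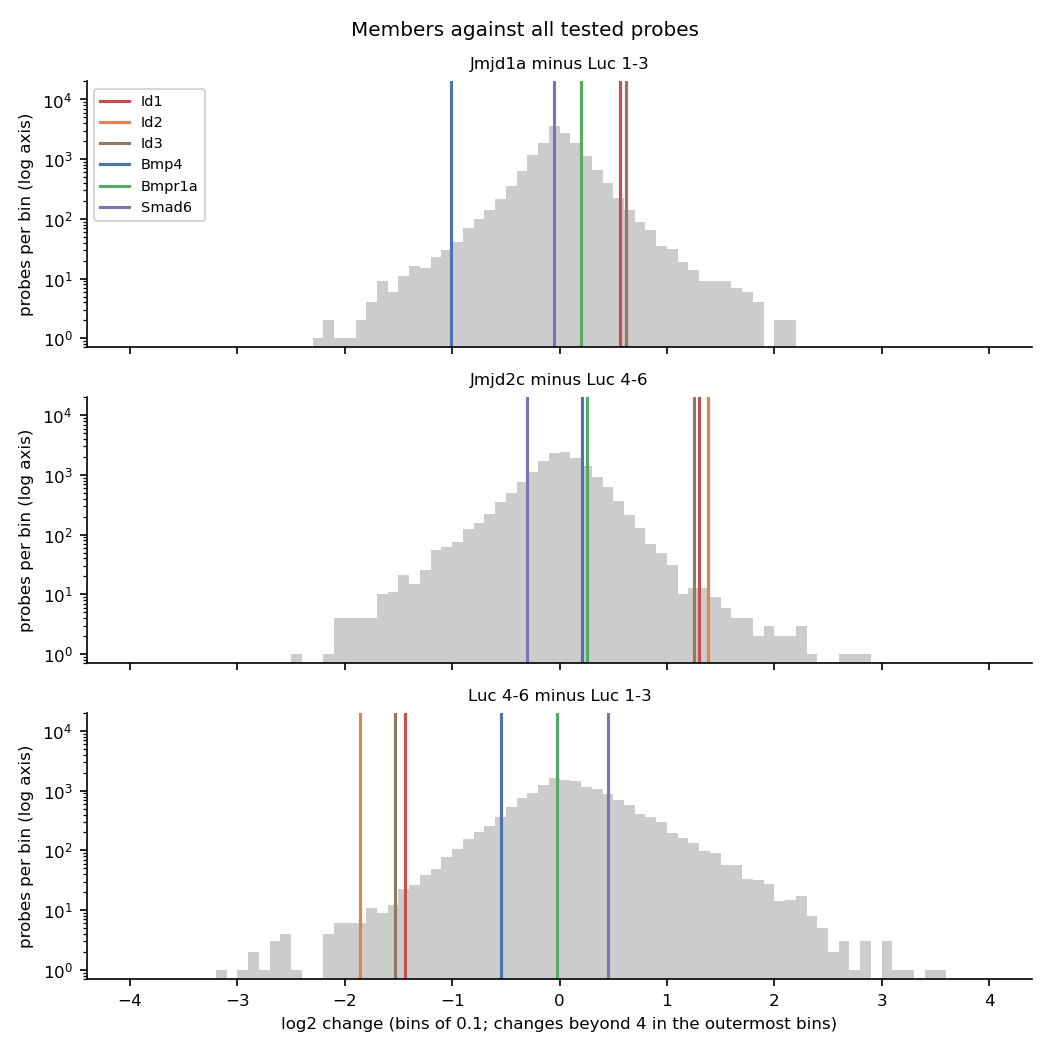
Histogram of the log2 changes of all 15853 tested probes (y axis on a log scale) in the 3 comparisons, with vertical lines at 1 probe per member gene, the one brightest on average. In the top panel Id2 and Id3 coincide at 0.62. Id1, Id2 and Id3 stand in the right tail for Jmjd2c and in the left tail for the Luc sets, and Bmp4 in the left tail for Jmjd1a.

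The Luc sets carried the same hairpin in the same cell line, yet the Id genes differed between them. Because the sets were read from these same arrays, the p-values between them describe the arrays and are no independent test, and the knockdown comparisons rest on the same division. From Luc replicates 1 to 3 to Luc replicates 4 to 6, Id1 probe 360398 was 2.72-fold lower (log2 difference -1.44 ± 0.05, adjusted p = 9.79e-10). Id2 probe 870324 was 3.62-fold lower (-1.86 ± 0.09, adjusted p = 1.68e-08). Id3 was 2.90-fold lower (-1.54 ± 0.08, adjusted p = 4.33e-08). Among the tested member probes 5 were lower and 2 higher in Luc replicates 4 to 6, against 20.9% and 37.1% of all tested probes, of which 58.0% were called. The arrays of Luc 4-6 lay wholly below those of Luc 1-3 at 5 member probes and wholly above at 3, against 23.9% and 40.7% of all tested probes. Without Luc replicate 1, 2, 3 or 4 the count of higher probes called was 1. The sources do not say what separates the sets, and a direct comparison of Jmjd1a with Jmjd2c cannot be told apart from it. The median log2 difference over all tested probes was 0.10 between the Luc sets, and 64.02% of the called probes were higher in replicates 4 to 6. That share was 49.2% after quantile normalization and 44.0% with arrays set to a common median. The falls of Id1, Id2 and Id3 kept their direction and their call under both scalings.

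The choice of Luc arrays mattered for the Id genes. Against all 6 Luc arrays, as the series text sets the groups, Id1 rose by 1.29, Id2 by 1.54 and Id3 by 1.39 on the log2 scale in Jmjd1a, at adjusted p of 0.0354, 0.0469 and 0.0349. In Jmjd2c the same comparison gave 0.58, 0.45 and 0.49 and none passed (adjusted p = 0.366, 0.605 and 0.497). Bmp4 fell by 0.74 in Jmjd1a against all 6 Luc arrays (adjusted p = 0.00837). In that comparison 8.40% of tested probes rose in Jmjd1a and 9.41% fell, and 8.70% rose in Jmjd2c and 3.26% fell.

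On the log2 scale the rise of the Id genes was larger in Jmjd2c than in Jmjd1a. The change in Jmjd1a less that in Jmjd2c was -0.74 ± 0.07 for Id1 (adjusted p = 2.04e-05), -0.76 ± 0.13 for Id2 probe 870324 (adjusted p = 0.00136) and -0.63 ± 0.12 for Id3 (adjusted p = 0.00291). Over all tested probes this difference passed in 24.2%, below 0 in 11.8% and above 0 in 12.4%, against 4 and 1 of the member probes. The probe above 0 was Id2 101170021, at 0.70 ± 0.11 (adjusted p = 0.00105), where Luc replicates 4 to 6 lay at the floor. With a floor of 16 its difference was 0.13 and no longer passed (adjusted p = 0.736).

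On the linear scale the order depended on the gene. The mean intensity of Id1 rose by 239 ± 6.56 (SE) in Jmjd1a and by 270 ± 5.84 in Jmjd2c. That of Id2 probe 870324 rose by 161 ± 16.6 in Jmjd1a and by 134 ± 13.9 in Jmjd2c, and that of Id3 by 159 ± 16.1 and 141 ± 9.04. The linear differences between the knockdowns were -30.2 ± 8.79 for Id1, 26.8 ± 21.6 for Id2 and 18.1 ± 18.5 for Id3. The larger log2 rise in Jmjd2c went with a lower starting level in Luc replicates 4 to 6, and for Id2 and Id3 the sign turned on the linear scale, by about the size of the SE.

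**Figure D4:**
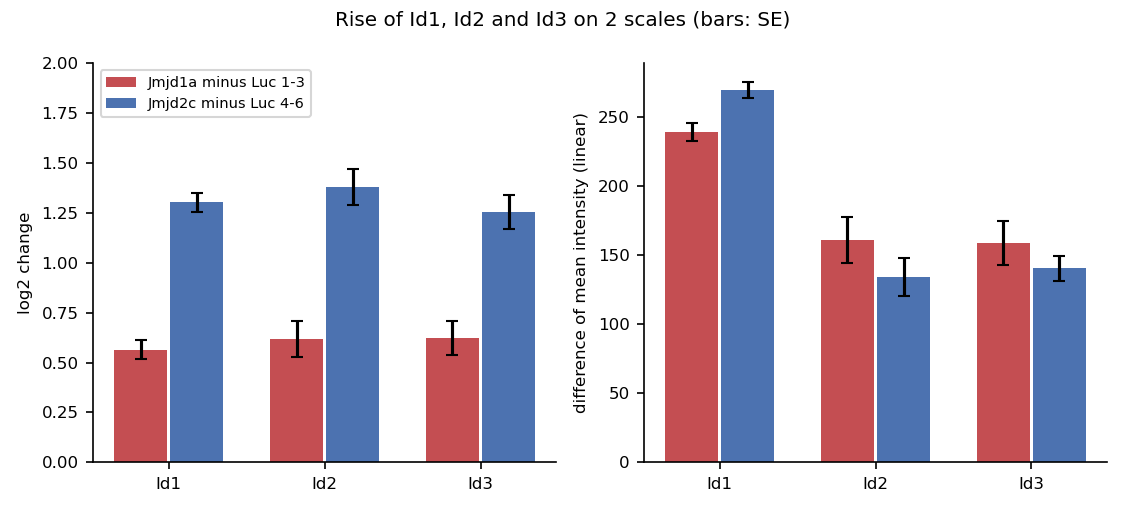
Rise of Id1 (probe 360398), Id2 (probe 870324) and Id3 in each knockdown against its own Luc arrays, as a log2 change (left) and as a difference of mean intensity (right), with bars for the SE and 3 arrays per group. The Jmjd2c bars are higher for all 3 genes on the left and only for Id1 on the right.

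The rest of the pathway was read from lists of 70 genes on the array, of which 33 were above the floor on enough arrays to be tested, with 1 probe per gene. In Jmjd1a 10 of these rose and 2 fell, and in Jmjd2c 9 rose and 6 fell, beside the shares of all tested probes given above. Between the Luc sets 15 were higher and 7 lower in replicates 4 to 6. In Jmjd1a the count of rises went down to 5 with single arrays left out (Jmjd1a replicate 1, Jmjd1a replicate 2 or Luc replicate 3), and to 6 without Luc replicate 1. The count of falls was 1 without Jmjd1a replicate 1 or 3 or Luc replicate 1 or 2.

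Of 15 other BMP and GDF ligands only Bmp7, Bmp8a and Gdf3 were tested, and their median log2 change was -0.11 in Jmjd1a and -0.10 in Jmjd2c, beside 0.00 and 0.01 for all tested probes. Gdf3, a ligand of the TGF-beta superfamily made by ES cells, had mean intensities of 1974 in Luc 1-3, 1531 in Jmjd1a, 1230 in Luc 4-6 and 1419 in Jmjd2c. It fell by 0.37 in Jmjd1a (adjusted p = 0.00111) and rose by 0.21 in Jmjd2c (adjusted p = 0.0206), the same signs as Bmp4. The rise was lost without Jmjd2c replicate 1 (0.15) or Luc replicate 6 (0.17). Against all 6 Luc arrays the Gdf3 change was -0.025 in Jmjd1a (adjusted p = 0.931) and -0.14 in Jmjd2c (adjusted p = 0.695), so neither call held there. Bmp7, a ligand that also acts through Smad1 and Smad5, was under the floor in Luc 1-3 and averaged 126 in Luc 4-6 and 73.4 in Jmjd2c. It was at least 3.95-fold higher in Luc 4-6 than in Luc 1-3 and fell by 0.78 in Jmjd2c (adjusted p = 1.13e-05), a change of 0.21 against all 6 Luc arrays. The ligands Bmp2, Bmp5 and Bmp6 lay under the floor on every array.

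Of 10 other receptors and coreceptors 6 were tested, with median log2 changes of 0.04 in Jmjd1a and 0.16 in Jmjd2c. Rgma, a coreceptor of the repulsive guidance family, rose by 0.47 in Jmjd1a (adjusted p = 0.0275), a call lost without Jmjd1a replicate 1 (0.41) or 2 (0.50) or Luc replicate 1 (0.44) or 3 (0.39). Hjv, the coreceptor hemojuvelin, fell by 0.67 in Jmjd2c (adjusted p = 0.000258), a call lost against all 6 Luc arrays (-0.32, adjusted p = 0.352). The receptors Acvr1, Acvr2a and Acvr2b passed in neither knockdown, and the type II receptor Bmpr2 lay under the floor on every array.

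Of 11 Smads and intracellular regulators 8 were tested. In each knockdown 4 rose and 1 fell, with medians of 0.18 in Jmjd1a and 0.16 in Jmjd2c. Smad1, a transducer that BMP receptors phosphorylate, averaged 321 in Luc 1-3, 376 in Jmjd1a, 442 in Luc 4-6 and 621 in Jmjd2c. It rose by 0.23 ± 0.07 in Jmjd1a (adjusted p = 0.0384) and by 0.49 ± 0.07 in Jmjd2c (adjusted p = 0.000299). The Jmjd1a call was lost without Jmjd1a replicate 1, 2 or 3, Jmjd2c replicate 2 or Luc replicate 1, 3 or 4 (changes of 0.18 to 0.25), and against all 6 Luc arrays it was -0.0019. Smad5, its close relative, rose by 0.34 ± 0.09 (adjusted p = 0.0121) and 0.41 ± 0.09 (adjusted p = 0.00272). Its Jmjd1a call was lost against all 6 Luc arrays (0.24, adjusted p = 0.0972) and in a fit on only the 6 arrays compared (adjusted p = 0.0601). Smurf2, a ubiquitin ligase that acts on Smads and receptors, rose by 0.48 in Jmjd1a and 0.24 in Jmjd2c (adjusted p = 0.000777 and 0.0256). Its Jmjd2c call was lost without Jmjd2c replicate 1, 2 or 3 or Luc replicate 4 or 5 (changes of 0.19 to 0.25), and its Jmjd1a call against all 6 Luc arrays (0.33, adjusted p = 0.0544). Tob1, a repressor of BMP Smads, fell in both knockdowns, by 0.40 in Jmjd1a and by 0.57 in Jmjd2c (adjusted p = 0.0346 and 0.00375). Its Jmjd1a call was lost without Jmjd1a replicate 1, 2 or 3 or Luc replicate 1 or 2 (changes of -0.41 to -0.34). Against all 6 Luc arrays the Tob1 change was -1.10 in Jmjd1a (adjusted p = 0.0631) and 0.13 in Jmjd2c (adjusted p = 0.868). Smad1 and Tob1 were higher in Luc 4-6 than in Luc 1-3, by 0.46 and 1.40 on the log2 scale (adjusted p = 0.000183 and 1.96e-06), whereas the Id genes were lower there.

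Of 15 antagonists 3 were tested, with median changes of 0.12 in Jmjd1a and -0.08 in Jmjd2c, and 1 rose in each knockdown. Fst encodes follistatin, which binds activins and some BMPs, and its mean intensity was 55.9 in Luc 1-3, 161 in Jmjd1a, 30.8 in Luc 4-6 and 62.0 in Jmjd2c. It rose by 1.53 ± 0.09 in Jmjd1a (adjusted p = 5.52e-07) and by 0.89 ± 0.09 in Jmjd2c (adjusted p = 2.15e-05). The group order of Fst at the top and bottom was that of the Id genes, while its log2 rise was larger in Jmjd1a, by 0.64 (adjusted p = 0.00425). Only 1 of the 3 arrays of Luc 4-6 was above the floor, and with a floor of 16 that difference was 0.51 and did not pass (adjusted p = 0.0638). The Jmjd2c rise of Fst was lost against all 6 Luc arrays (0.52, adjusted p = 0.132) and was 0 with a floor of 64 (adjusted p = 1). Chrd and Twsg1 passed in neither knockdown, and Nog lay under the floor on every array.

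Of 11 other BMP target genes 9 were tested, of which 4 rose in Jmjd1a, and 2 rose and 2 fell in Jmjd2c. Their median changes were 0.17 and 0.08. Msx1, a homeobox gene, averaged 13.9 in Luc 1-3, 81.0 in Jmjd1a, -0.17 in Luc 4-6 and 25.9 in Jmjd2c. It was at least 2.53-fold higher in Jmjd1a (adjusted p = 5.68e-08), and in Jmjd2c 1 of the 3 arrays was above the floor. Cdx2, a caudal homeobox gene of the trophectoderm, averaged 70.5, 163, 20.3 and 64.5 in the same order. It rose by 1.21 ± 0.07 in Jmjd1a and by 0.97 ± 0.07 in Jmjd2c (adjusted p = 2.94e-07 and 1.01e-06). Of the Luc 4-6 arrays 1 was above the floor for Cdx2, and its Jmjd2c rise was lost against all 6 Luc arrays (0.42, adjusted p = 0.406) and with a floor of 64 (0.046, adjusted p = 0.497). Dlx3 and Hey1 moved in opposite directions in the knockdowns, each set against its own Luc arrays. Both genes also differed between the Luc sets. Dlx3 was at least 2.52-fold higher in Luc 4-6 than in Luc 1-3 and Hey1 was higher by 0.85 (adjusted p = 4.9e-05 and 1.49e-05). Dlx3 was at least 1.45-fold higher in Jmjd1a (adjusted p = 0.0455) and fell by 0.71 in Jmjd2c (adjusted p = 0.00818). The difference of its changes was 1.24 (adjusted p = 0.00413). The Jmjd1a rise of Dlx3 was lost with any array of Jmjd1a or Luc left out (0.47 to 0.60), and its Jmjd2c fall was lost against all 6 Luc arrays (-0.041, adjusted p = 0.963). Hey1 rose by 0.33 in Jmjd1a (adjusted p = 0.0290) and fell by 0.37 in Jmjd2c (adjusted p = 0.0112), and its rise was lost without Jmjd1a replicate 1 or 2 or Luc replicate 1 or 3 (0.27 to 0.35). Against all 6 Luc arrays the Jmjd1a change was -0.13 for Dlx3 and -0.098 for Hey1 (adjusted p = 0.820 and 0.782). The Jmjd2c change of Hey1 was 0.058 there (adjusted p = 0.906). Gata2 rose by 0.97 in Jmjd2c (adjusted p = 0.000545), from a mean of 34.2 in Luc 4-6 to 70.6, and with a floor of 64 the change was 0.18 and did not pass (adjusted p = 0.0760).

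Of 8 E proteins and other helix-loop-helix factors that Id proteins oppose, 4 were tested, with median changes of 0.06 in Jmjd1a and 0.18 in Jmjd2c. None was called in Jmjd1a by limma. Tcf4 (E2-2) fell by 0.41 in Jmjd2c (adjusted p = 0.000332) and Tcf12 (HEB) rose by 0.40 (adjusted p = 0.000218). Tcf3 (E2A) averaged 381 in Luc 1-3, 339 in Jmjd1a, 395 in Luc 4-6 and 389 in Jmjd2c, and passed in neither.

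**Figure D5:**
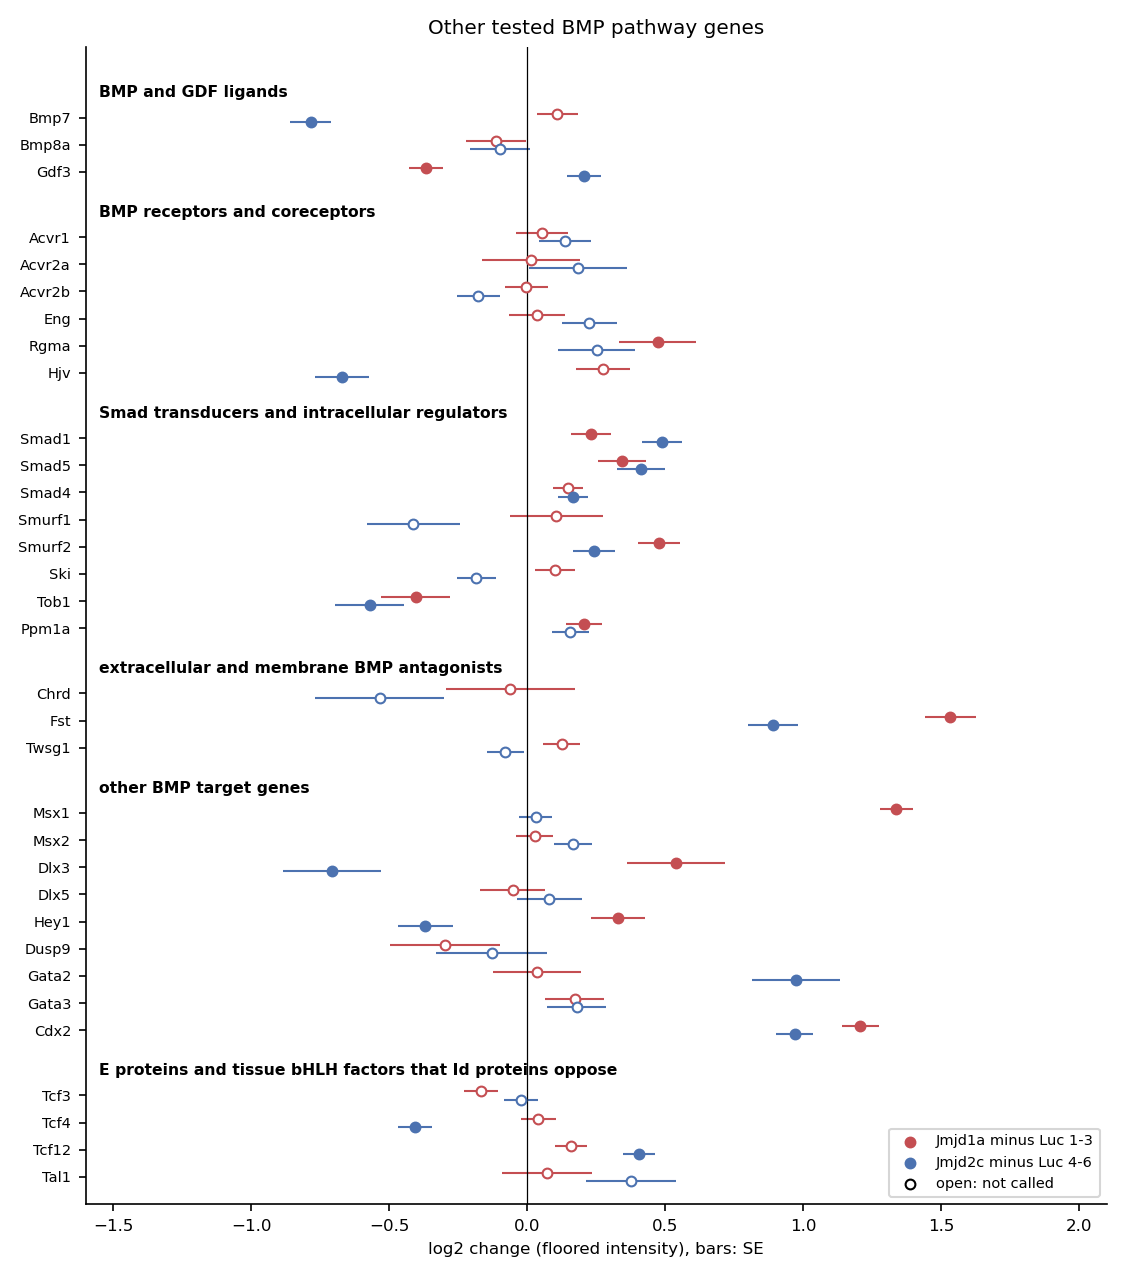
Log2 change (x axis, bars for the SE) of the 33 other tested pathway genes in Jmjd1a against Luc 1-3 and Jmjd2c against Luc 4-6, grouped by role. Filled points passed at an adjusted p under 0.05. Fst and Cdx2 lie far right in both knockdowns, Msx1 only in Jmjd1a, and Tob1 lies left in both.

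Markers of other cell types moved in the same samples. Of all tested probes 13.4% rose and 12.1% fell in Jmjd1a, and 20.7% rose and 18.2% fell in Jmjd2c. For 7 trophectoderm markers, of which 6 were tested and Elf5 was under the floor, the summed intensity was 1562 to 1626 in Luc 1-3 and 1821 to 1906 in Jmjd1a, with 5 rising. It was 2605 to 3151 in Luc 4-6 and 3615 to 3908 in Jmjd2c, with 3 rising. Tfap2c had the largest mean in this list (1156.5 in Luc 1-3 and 2178.1 in Luc 4-6) and passed in neither knockdown. Cdx2 is in this list too. For 8 markers of primitive and visceral endoderm, of which 5 were tested, Sox7 and Afp were under the floor and Foxa2 did not pass the filter, the sum was 1460 to 1490 in Luc 1-3 and 619 to 778 in Jmjd1a, with 2 falling. It was 699 to 708 in Luc 4-6 and 2234 to 2516 in Jmjd2c, with 4 rising. The endoderm sum was thus lower in Jmjd1a and higher in Jmjd2c than in the Luc arrays of the same set. Dab2 and Gata6 had the largest means in it (952 and 296 in Luc 1-3), and Gata4 passed in neither knockdown.

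Of the 10 ES cell markers 9 were tested and Dppa5a was under the floor. In each knockdown 4 fell and none rose, beside the same shares of all tested probes. Nanog and Fgf4 fell in both, Zfp42 and Esrrb only in Jmjd1a, and Sox2 and Tdgf1 only in Jmjd2c. Fgf4 was near the floor, with means of 57.1 in Luc 1-3, 29.3 in Jmjd1a, 57.7 in Luc 4-6 and 31.2 in Jmjd2c. Pou5f1, Dppa4 and Utf1 passed in neither. The sum over the 10 markers was 28086 to 29687 in Luc 1-3 and 22989 to 23164 in Jmjd1a. It was 30064 to 30687 in Luc 4-6 and 26216 to 27620 in Jmjd2c. Esrrb had the largest mean of this list in both Luc sets. It averaged 6777 in Luc 1-3, 3812 in Jmjd1a, 8194 in Luc 4-6 and 7713 in Jmjd2c. Of 7 fibroblast markers only Thy1 was tested, which fell in both knockdowns, and Col1a1, Col1a2 and Col3a1 were under the floor. None of the 4 mesoderm markers on the array was above the floor. Of 5 neuroectoderm markers 3 were tested, 1 rose and 2 fell in Jmjd1a and 1 rose in Jmjd2c, and Sox1 and Map2 did not pass the filter. Their sum was 302 to 341 in Luc 1-3, 217 to 234 in Jmjd1a, 209 to 252 in Luc 4-6 and 318 to 371 in Jmjd2c. The part of these shifts in the changes of the Id genes and Bmp4 was not tested.

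Over the 12 arrays the log2 values of Id1 and Id2 correlated at r = 0.988, those of Id1 and Id3 at 0.991, and those of Id2 and Id3 at 0.985. With the mean of each array set taken off, the values were 0.987, 0.985 and 0.964. With no mean taken off, Bmp4 correlated with Id1, Id2 and Id3 at -0.20, -0.20 and -0.22. Smad6, whose probe lay near the floor, did so at -0.80, -0.84 and -0.75, and Bmpr1a probe 4060603 at 0.51, 0.43 and 0.48. These are descriptions over arrays that fall into 4 groups. By the same measure the genes most like Id1 were Cmtm4 (0.997), Sp5 (0.988) and Pes1 (0.988), and with set means taken off Phlda1 (0.997), F2r (0.996) and Fgfbp1 (0.994). Those most like Id2 were Nkrf (0.992), Mest (0.991) and Lpar4 (0.990), and with set means off Phlda1 (0.989), Psmb10 (0.988) and Mfn2 (0.986). Those most like Id3 were Sp5 (0.991), Lpar4 (0.991) and Mycbp (0.989), and with set means off En1 (0.987), Ythdc1 (0.986) and Pou3f1 (0.986).

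Sp5 and Lpar4 shared the pattern of the Id genes at a larger size than Id3: Sp5 changed by 1.58 in Jmjd1a, 2.29 in Jmjd2c and -2.51 between the Luc sets. For Bmp4 the nearest genes were Slc66a2 (0.978), Mras (0.944) and Kdm3a (0.929), the last being the gene that the Jmjd1a hairpin targets, and with set means off Tfpi (0.986), Kdm3a (0.982) and Ehd1 (0.979). For Bmpr1a they were Pyroxd1 (0.900), Ddr1 (0.889) and Ccny (0.885). For Smad6 they were the dim probes of Aadacl4fm1 (0.960), Snx20 (0.947) and Sdcbp2 (0.946).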

How the data were processed

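The authors deposited 1 intensity per probe and array on a linear scale, in a table of 46133 probes and 12 arrays of biotin-labelled cRNA. Between 35.0% and 36.8% of the values of an array lay below 0. Any background subtraction and any scaling between arrays stay unstated in the labels. Array means lay close together, and values were used as deposited. Symbols came from the platform's annotation (29542 probes with 1 symbol, 11 with several, 16580 with none), and of these 29484 had identifiers in the RefSeq gene table (GRCm38.p6), which served for names.

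Intensities under 32 were set to 32 and put on the log2 scale, where the floor is 5. Probes above 32 on at least 3 arrays were tested with limma 3.58.1 in R 4.3.3 (lmFit and eBayes, 4 group means, 8 residual degrees of freedom), which was tested on simulated data. Benjamini-Hochberg adjustment of the two-sided p-values ran over all 15853 tested probes, and a probe was called, or said to have passed, risen or fallen, under 0.05. "At least" marks a fold against a group wholly at the floor. The exact permutation test of 3 arrays against 3 cannot go below p = 0.1 and was not used for calls. Means and SD are of unfloored intensities.

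Pathway genes were named from the called probes of each list, up to 3 with the largest change each way per comparison, some left out where a count says enough, and other genes are named as not tested or not called. A pathway gene is read from the tested probe with the highest mean. The most alike genes were ranked by Pearson's r of log2 values, among tested probes with 1 symbol. The members and lists were chosen with earlier results of these data known. Alternatives varied scaling, floor, filter, samples, variance model, replicate block and Luc arrays. The linear comparison was added after seeing the data.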

Additional observations from a re-analysis of the deposited data

Results flagged for a closer look

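For 5 of the 9 tested member probes the test of the difference between the knockdown effects passed, each knockdown being set against its own 3 Luc arrays. Of all tested probes 24.2% passed it. The log2 change in Jmjd1a less that in Jmjd2c was -0.74 for Id1 probe 360398, -0.76 for Id2 probe 870324 and -0.63 for Id3, all of which rose in both knockdowns. It was 0.70 for Id2 probe 101170021, which lay under the floor on all 3 Luc arrays of the Jmjd2c set. It was -1.22 for Bmp4 probe 380113, which fell in Jmjd1a. On the linear scale the differences of Id2 probe 870324 and Id3 had the other sign, at 26.8 ± 21.6 (SE) and 18.1 ± 18.5. With a floor of 16 that of Id2 probe 101170021 was 0.13 and did not pass (adjusted p = 0.736). Whether an array stood apart from the others of its group was not tested in groups of 3. The difference of the knockdown effects rests on the division of the Luc arrays, which was read from the data.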

How the results depend on the processing

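The calls of Id1 probe 360398, Id2 probe 870324 and Id3 in Jmjd1a and between the Luc sets, and the fall of Bmp4 in Jmjd1a, passed under every alternative run. In Jmjd2c the same Id calls passed except against all 6 Luc arrays, where 1 member probe was called higher instead of 6. Of 806 recomputed values of member probes 736 kept direction and side of the threshold, 46 lost the call, 11 gained it and 13 changed sign. Against all 6 Luc arrays the signs of Id1 probe 104670280 (0.018) and Bmp4 (-0.060) in Jmjd2c turned. For Bmpr1a probe 4060603 the difference between the Luc sets became 0.016 with the replicate block, and with single arrays left out it ran from -0.070 to 0.055, above 0 without Luc replicate 2 or 6. Its difference of knockdown effects ran from -0.12 to 0.025 with single arrays left out, above 0 without Jmjd2c replicate 2 or Luc replicate 2. That of Bmpr1a probe 2190193 was 0.44 with a floor of 16, 0.14 with an offset of 64 and 5.33 on the linear scale, and that of Smad6 was -0.092 with a floor of 16. On the linear scale the differences of Id2 and Id3 were 26.8 and 18.1. Of 1313 recomputed values of called pathway genes 1182 kept their call, 124 lost it and 7 changed sign, all of these against all 6 Luc arrays: Smad1 (-0.0019), Dlx3 (-0.13) and Hey1 (-0.098) in Jmjd1a, and Bmp7 (0.21), Gdf3 (-0.14), Tob1 (0.13) and Hey1 (0.058) in Jmjd2c. No reversed value passed where it was tested, and the causes were not tested.

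Against all 6 Luc arrays the counts of all probes called were 1331 higher in Jmjd1a, and 1379 higher and 517 lower in Jmjd2c. Pathway genes called there were 4 higher and 0 lower in Jmjd1a and 1 lower in Jmjd2c. Fits on only the 6 arrays compared gave 1 pathway gene lower in Jmjd1a and 3 member probes higher in Jmjd2c. The count of member probes higher in Luc replicates 4 to 6 was 1 with the stricter filter of 6 arrays, quantile normalization or the block, and 0 with a common median or a floor of 64. A common median gave 5303 probes lower there, and a floor of 64 left 3 pathway genes lower. No member probe had a difference of effects above 0 with a floor of 16 or an offset of 64. With single arrays left out, pathway genes in Jmjd1a ran from 5 to 11 higher and 1 to 2 lower. Member probes in Jmjd2c ran from 3 to 6 higher and 0 to 1 lower, and those higher in Luc replicates 4 to 6 from 1 to 2. The unfiltered fit used the 17742 probes above the floor on at least 1 array.

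Whether the replicate numbers that Jmjd1a shares with Luc 1-3 pair the samples could not be decided. Deviations from means of only 3 arrays constrain one another. Those of same-numbered arrays correlated at -0.002, 0.014 and 0.108. Arrays 1 and 2 of Jmjd1a correlated better with another number, and array 3 correlated best with its own. With the shared numbers as a replicate block 6 pathway genes rose in Jmjd1a instead of 10. Jmjd2c shares no numbers with Luc 4-6, so the block left the arrays of that set unpaired, and pairing there was not examined. Smad6, Id4, Id1 probe 104670280 and Bmpr1a probe 2190193 lay at or near the floor, which limits what can be said of them.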
